A study of Mus musculus with 4 samples.

Results

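The genes described here are the 10 histone deacetylase genes Hdac1 to Hdac10. They were chosen by symbol, and all 10 were present among the 16375 genes of the deposited table. Bone marrow-derived macrophages, which are bone marrow cells matured in culture with M-CSF, came from wild-type (WT) mice and from LNCKO mice, in which CRISPR-Cas9 cuts on both sides of the exons removed the long noncoding RNA lncLy6c on a C57BL/6J background. Cells of each genotype were left untreated as controls or were given 500 µM butyrate for 24 h, so that there were 4 groups with 1 RNA library each. Age and sex of the donors are not given in the labels. No difference between groups therefore has a replicate check, no test between groups was possible, and the intervals given below cover counting error only. The libraries measure RNA and not the activity of the enzymes.

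Histone deacetylases remove acetyl groups from lysines of histone tails and of many other proteins, which as a rule compacts chromatin and lowers transcription. Butyrate, a short-chain fatty acid made by gut bacteria from fiber, inhibits the zinc-dependent deacetylases, the class I enzymes above all, while HDAC6 and HDAC10 are usually described as resistant to it. Class I (HDAC1, HDAC2, HDAC3 and HDAC8) is mostly nuclear, and HDAC1, HDAC2 and HDAC3 work as the catalytic subunits of corepressor complexes. Class IIa (HDAC4, HDAC5, HDAC7 and HDAC9) shuttles between nucleus and cytoplasm, has little deacetylase activity of its own and holds MEF2 transcription factors in check. Class IIb consists of HDAC6, the cytoplasmic tubulin deacetylase, and HDAC10, a polyamine deacetylase.

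The deposited values are FPKM, that is, fragments of a gene per 1000 bases of its length and per 1000000 fragments of the library. The length proved to be the whole genomic span with introns, since 98.5% of the 16342 genes found in the GENCODE M21 annotation (GRCm38) came out as whole fragments on it in all 4 libraries. Library totals lay between 53363944 and 65521713 fragments. All 10 deacetylase genes were whole, with 471 fragments for the lowest value (Hdac8 in untreated WT) and 7638 for the highest (Hdac5 in treated LNCKO). All 10 also passed the minimum of 100 fragments on average that 11088 genes passed. The 10 macrophage markers, among them Adgre1, Csf1r and Cd68, had at least 6150 fragments in each library. Other cell types were present as well, since the 6 B cell markers had at least 1135 and the 9 markers of neutrophils and their precursors at least 4869. The Y-linked Ddx3y had 65 and 49 fragments in the WT libraries and 6128 and 7764 in the LNCKO libraries, so that genotype and sex of the donors cannot be told apart.

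Levels were first compared among the genes, on the length of their merged exons, as fragments per 1000 exon bases per 1000000 fragments. This takes the counted fragments as exonic, which the values do not show. Hdac1 was the most abundant, between 19.2 and 20.3 over the 4 libraries. Hdac3, Hdac2 and Hdac5 followed, with means of 13.3, 12.7 and 12.6, and their ranges overlapped, so that these 3 have no order among themselves. Hdac7 (6.75 to 7.56) and Hdac10 (4.57 to 6.17) stood below them without overlap. Hdac6, Hdac8, Hdac9 and Hdac4 formed the lower end, with means of 2.48, 1.94, 1.53 and 1.53, and each overlapped its neighbor in the order. Hdac11, the class IV enzyme, which was not among the 10, reached 0.525 to 0.628. On this scale class I gave 61.3% of the summed level of the 10 genes in untreated and 63.4% in treated WT cells, and 59.0% and 61.1% in the corresponding LNCKO cells. The summed level of all 10 was 77.6, 73.6, 79.8 and 80.1 in the same order, so treated WT was the lowest library.

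**Figure D1:**
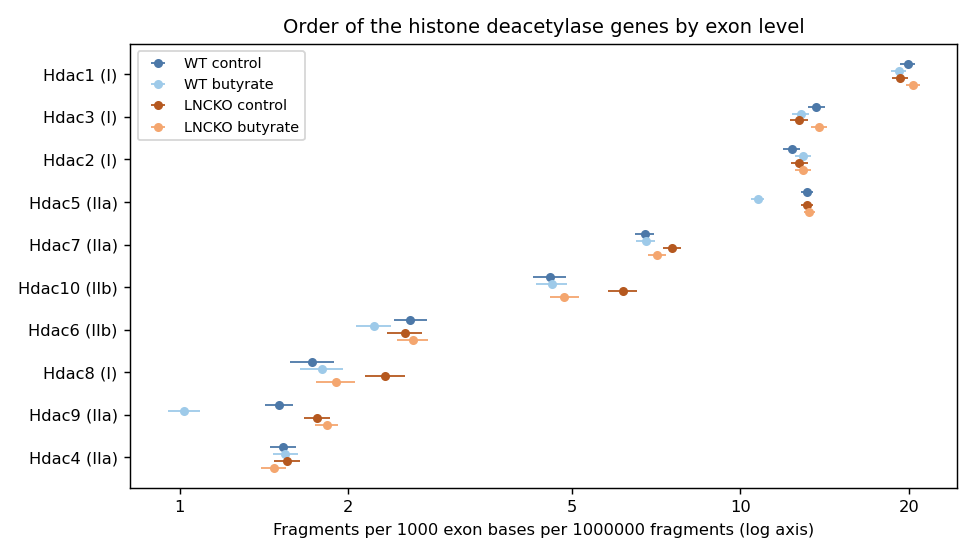
Level of each histone deacetylase gene in the 4 libraries, as fragments per 1000 exon bases per 1000000 fragments on a log axis, with the class in brackets; points are libraries and bars are exact 95% Poisson intervals. Hdac1 lies alone at 19.2 to 20.3, Hdac3, Hdac2 and Hdac5 overlap, and Hdac9 spreads most, from 1.02 to 1.83.

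How far the level of a gene varied differed between the members. From the lowest to the highest library, Hdac2 spanned 1.05-fold, Hdac4 and Hdac1 1.06-fold each and Hdac3 1.09-fold. Hdac9 spanned 1.79-fold, Hdac10 and Hdac8 1.35-fold each and Hdac5 1.24-fold. The genes that varied least include the 3 that serve as catalytic subunits of the corepressor complexes, and also Hdac4 of class IIa. The spread over all genes is not given here, and the members differ in their number of fragments.

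The promoter windows of Hdac5, Hdac6 and Hdac9 are shown because these 3 genes were lowest in treated WT cells, with a counting interval of the ratio to untreated WT below 1, together with that of Hdac2 as a gene that varied little. Each window holds 250 bases before and 50 bases after a start site of RefSeq on GRCm38.p6, and 7 of the 10 members had such windows. Capitals mark the GC box (GGGCGG or its complement CCGCCC), which Sp1-family factors bind, and the MEF2 consensus site, both searched on both strands with overlapping matches counted separately. The windows lie at chr10:36974294-36974593 (Hdac2, plus strand), chr11:102230123-102230422 (Hdac5, minus strand), chrX:7947840-7948139 (Hdac6, minus strand) and, for Hdac9 on the minus strand, at chr12:34917046-34917345 (outer start) and chr12:34528840-34529139 (inner start).
Hdac2: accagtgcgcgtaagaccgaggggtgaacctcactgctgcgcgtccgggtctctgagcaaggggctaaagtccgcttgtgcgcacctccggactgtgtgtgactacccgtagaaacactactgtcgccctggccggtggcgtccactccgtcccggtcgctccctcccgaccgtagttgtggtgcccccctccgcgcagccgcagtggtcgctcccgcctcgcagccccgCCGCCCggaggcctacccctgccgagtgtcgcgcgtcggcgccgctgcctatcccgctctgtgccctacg
Hdac5: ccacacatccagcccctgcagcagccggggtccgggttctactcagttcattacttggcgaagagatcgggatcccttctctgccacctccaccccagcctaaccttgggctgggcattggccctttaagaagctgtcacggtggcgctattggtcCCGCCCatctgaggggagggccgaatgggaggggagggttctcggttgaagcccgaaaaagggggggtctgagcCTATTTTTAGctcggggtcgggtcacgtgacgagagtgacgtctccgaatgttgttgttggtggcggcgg
Hdac6: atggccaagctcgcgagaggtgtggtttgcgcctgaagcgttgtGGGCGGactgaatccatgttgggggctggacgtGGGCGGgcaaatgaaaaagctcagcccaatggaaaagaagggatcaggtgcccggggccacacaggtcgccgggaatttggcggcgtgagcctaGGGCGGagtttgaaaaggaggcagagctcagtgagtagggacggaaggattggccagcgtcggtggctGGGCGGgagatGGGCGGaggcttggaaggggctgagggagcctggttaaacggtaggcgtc
Hdac9, outer start: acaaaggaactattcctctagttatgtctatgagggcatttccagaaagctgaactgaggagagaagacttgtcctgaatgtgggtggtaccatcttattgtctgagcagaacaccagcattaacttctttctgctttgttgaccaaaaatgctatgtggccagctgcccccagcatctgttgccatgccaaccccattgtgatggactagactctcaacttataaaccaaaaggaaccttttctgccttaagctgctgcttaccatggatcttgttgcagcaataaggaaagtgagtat
Hdac9, inner start: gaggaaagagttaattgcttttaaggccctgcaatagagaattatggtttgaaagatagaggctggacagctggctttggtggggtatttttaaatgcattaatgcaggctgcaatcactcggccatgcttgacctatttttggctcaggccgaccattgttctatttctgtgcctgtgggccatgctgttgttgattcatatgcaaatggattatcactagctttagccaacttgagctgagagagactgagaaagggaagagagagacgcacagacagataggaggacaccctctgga

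The windows differed in these features. The Hdac6 window held 5 GC boxes and the Hdac2 and Hdac5 windows held 1 each, whereas the Hdac9 windows held 0, with 35.7% of all 32851 RefSeq windows of this length holding at least 1. The Hdac5 window also held 1 MEF2 site, which 0.557% of all windows held. The CCAAT box, which NF-Y binds and which is not capitalized, was found at 2 places each in the Hdac5 and Hdac6 windows, where 37.4% of all windows held at least 1 and 11.7% held 2 or more. The Hdac2 window had 36 CpG dinucleotides, that of Hdac6 20 and that of Hdac5 18, against 0 and 3 at the outer and inner start of Hdac9 and a median of 7 over all windows. These matches describe the letters and show no binding.

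The first comparison asked whether butyrate changed the RNA of its own target enzymes in WT macrophages. Of the 10 genes, 0 were higher by 1.5-fold or more and 0 were lower by as much, where 3.34% and 2.93% of the 11088 genes were. The counting interval of the ratio lay below 1 for 4 of them (Hdac3, Hdac5, Hdac6 and Hdac9) and above 1 for 0, against 43.9% and 23.4% of all genes. The share of members on the lower side is therefore near that of all genes. The median log2 change of the 10 was -0.02, beside -0.06 over all genes compared.

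Hdac9 (ENSMUSG00000004698), a class IIa gene whose transcripts include a short form without the catalytic domain, had the largest butyrate change among the 10 in WT cells. Its FPKM was 0.0254 without and 0.0172 with butyrate in WT cells (1245 and 885 fragments), and 0.0297 and 0.0309 in LNCKO cells (1377 and 1758 fragments). The treated WT library was the lowest of the 4 and both LNCKO libraries lay above both WT libraries. With butyrate in WT the gene was 1.48-fold lower (95% counting interval 1.35 to 1.61), a log2 change of -0.56, and in LNCKO it was 1.04-fold higher (0.968 to 1.12). The FPKM is small because the gene spans 869516 bases of chromosome 12 (34047580 to 34917095, minus strand), and the deposited value does not separate its transcript forms.

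Hdac5 (ENSMUSG00000008855) had the next largest butyrate change in WT cells. Its FPKM was 3.23 without and 2.64 with butyrate in WT cells, and 3.23 and 3.26 in LNCKO cells. The treated WT library stood alone below the other 3. With butyrate its log2 change was -0.29 in WT (-0.34 to -0.24) and 0.02 in LNCKO (-0.03 to 0.06). The gene lies on chromosome 11 from 102194432 to 102230166, and the microRNA gene Mir8101 shares 111 of its 8780 exon bases.

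Hdac6, an X-linked gene (7930120 to 7947889), was also lowest in treated WT cells. Its FPKM was 0.844 without and 0.726 with butyrate in WT cells, and 0.825 and 0.852 in LNCKO cells, and its log2 change was -0.22 in WT (-0.36 to -0.07) and 0.05 in LNCKO (-0.09 to 0.18). The treated WT library was the lowest of the 4 for 4 of the 10 genes (Hdac1, Hdac5, Hdac6 and Hdac9) and for 46.3% of all genes.

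**Figure D2:**
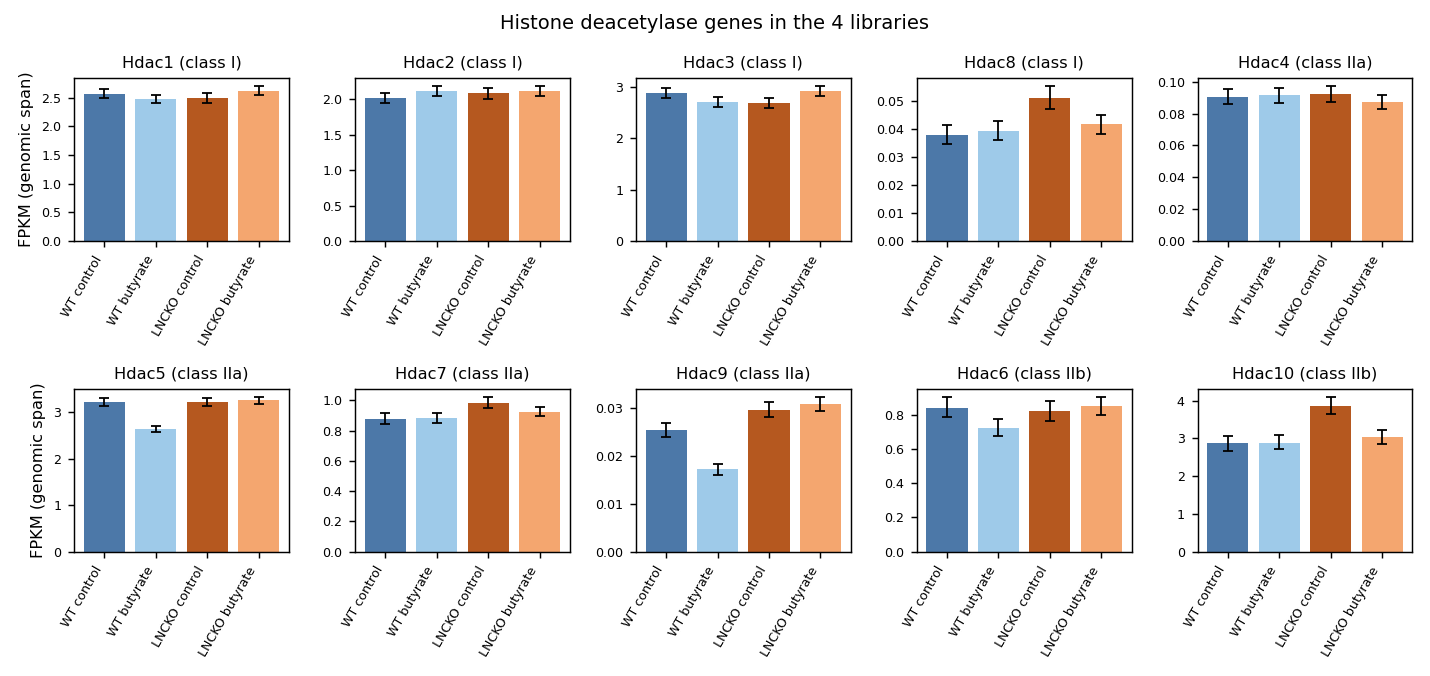
Deposited FPKM of the 10 genes, 1 bar per library with exact 95% Poisson intervals; each panel has its own axis from 0, so heights are not comparable between panels. Treated WT is lowest for Hdac5 (2.64), Hdac9 (0.0172) and Hdac6 (0.726), and untreated LNCKO is highest for Hdac8 (0.0510) and Hdac10 (3.86).

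Among the class I genes, which butyrate inhibits as enzymes, the RNA differed little between WT libraries. Hdac1, a subunit of the Sin3, NuRD and CoREST complexes, had an FPKM of 2.57 without and 2.48 with butyrate in WT cells, and of 2.50 and 2.63 in LNCKO cells. Hdac2, its close paralog in the same complexes, had 2.02, 2.11, 2.08 and 2.11 in that order. Hdac3, the enzyme of the NCoR/SMRT complex, had 2.89, 2.71, 2.69 and 2.92. For Hdac1 and Hdac2 the interval of the WT ratio included 1, with log2 changes of -0.05 and 0.07, and for Hdac3 it was lower by a log2 change of -0.09 (-0.17 to -0.02). The WT intervals of these 3 genes ran from 0.892-fold to 1.10-fold, within 1.5-fold in either direction as far as counting error goes.

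In LNCKO macrophages given butyrate, again 0 of the 10 genes were past 1.5-fold upward and 0 downward, beside 1.67% and 0.938% of all genes. The interval lay above 1 for Hdac1 and Hdac3 (19.9% of all genes) and below 1 for Hdac7, Hdac8 and Hdac10 (31.1% of all genes). The members' median log2 change was 0.02, beside -0.02 over all genes.

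Hdac10 (ENSMUSG00000062906, chromosome 15 from 89123307 to 89128700) had the largest of these differences. Its FPKM was 2.86 without and 2.89 with butyrate in WT cells, and 3.86 and 3.04 in LNCKO cells. Untreated LNCKO stood alone above the other 3 libraries, so that the gene was both higher in LNCKO than in WT without butyrate, by 0.43 on the log2 scale (0.30 to 0.56), and lower with butyrate in LNCKO, by a change of -0.34 (-0.47 to -0.22). These last values share the untreated LNCKO library and are not independent of each other.

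Hdac8, an X-linked class I gene that acts outside the corepressor complexes and deacetylates cohesin, had the same shape. Its FPKM was 0.0378 without and 0.0393 with butyrate in WT cells, and 0.0510 and 0.0416 in LNCKO cells. Untreated LNCKO was again the highest library, 0.43 above untreated WT on the log2 scale (0.25 to 0.61), and the change with butyrate in LNCKO was -0.29 (-0.46 to -0.13). Untreated LNCKO was the highest of the 4 libraries for 4 members, Hdac4 and Hdac7 being the others, and for 32.2% of all genes. The summed level of the 5 stromal markers (Col1a1, Col1a2, Col3a1, Sparc and Dcn) was lowest in this same library, at 71.1 fragments per 1000000, against 153 in treated LNCKO and 249 and 219 in untreated and treated WT, and its part in the values of Hdac8 and Hdac10 was not tested.

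The remaining class IIa genes differed little. Hdac7, which is prominent in developing lymphocytes, had an FPKM of 0.879 without and 0.883 with butyrate in WT cells, and of 0.985 and 0.925 in LNCKO cells. Both LNCKO libraries lay above both WT libraries. Its log2 change with butyrate was 0.01 in WT and -0.09 in LNCKO (-0.16 to -0.02). Hdac4 had 0.0907, 0.0915, 0.0921 and 0.0871 in the same order, and the intervals of all 4 of its comparisons included 1. Of the exon bases of Hdac4, 22.4% overlap the antisense noncoding gene Gm26720, and whether the counting used the strand is not given in the sources used here.

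**Figure D3:**
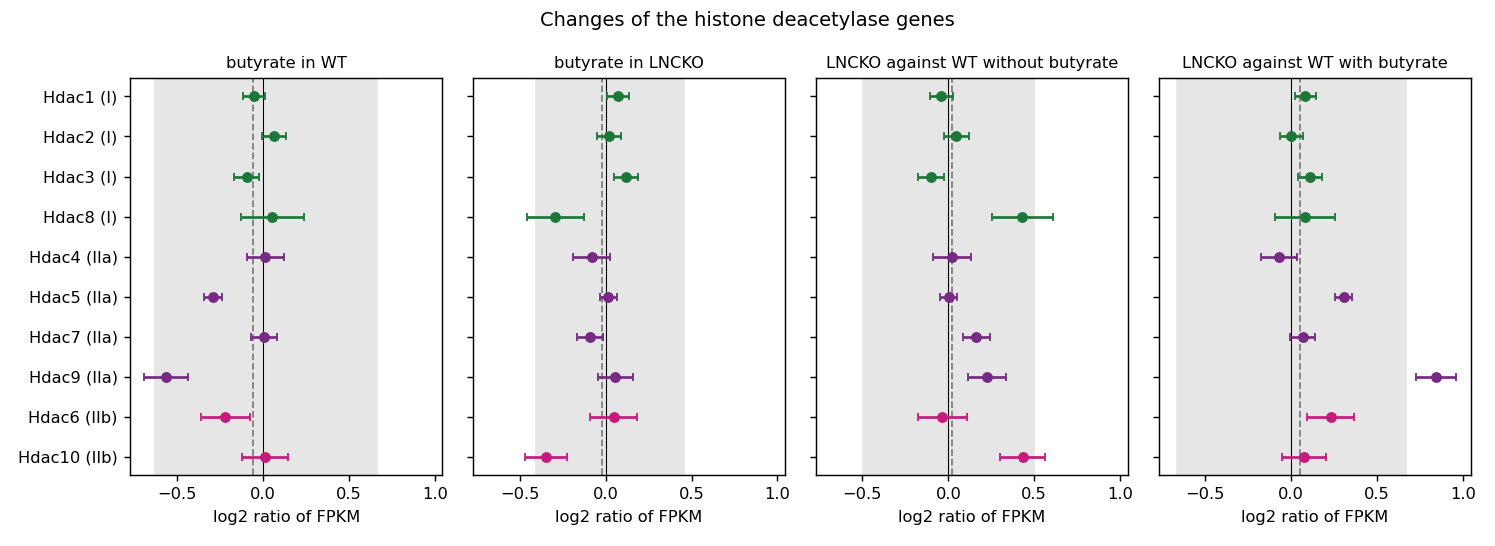
Log2 ratio of FPKM for the 10 genes in the 4 comparisons, with 95% counting intervals; the gray band holds the central 95% of the 11088 genes compared and the dashed line is their median. Hdac9 leaves the band in LNCKO against WT with butyrate, at 0.84, and the other points lie inside the bands.

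Between the genotypes without butyrate, 0 members were past 1.5-fold in either direction, against 1.6% of all genes on the higher side and 1.94% on the lower. The interval lay above 1 for Hdac7, Hdac8, Hdac9 and Hdac10 (30.2% of all genes) and below 1 for Hdac3 (21.2%). With butyrate, Hdac9 was the only member past 1.5-fold, 1.79-fold higher in LNCKO (1.65 to 1.95), beside 3.34% of all genes on that side, and 0 members were past it on the lower side, beside 3.19%. This call was lost when a pseudocount of 0.1 was added to the FPKM, which is larger than any value of Hdac9, and its log2 difference of 0.84 then became 0.16. On the deposited values with no pseudocount, the interval lay above 1 for Hdac1, Hdac3, Hdac5, Hdac6 and Hdac9 (43.9% of all genes) and below 1 for 0 (24% of all genes). These comparisons reuse the libraries of the butyrate comparisons and are not independent of them. Hdac5 and Hdac6 were also higher in LNCKO under butyrate, by 0.31 (0.26 to 0.36) and 0.23 (0.09 to 0.37) on the log2 scale. Both LNCKO libraries lay above both WT libraries for 5 members (Hdac5, Hdac7, Hdac8, Hdac9 and Hdac10) and for 23.3% of all genes, and below them for 0 members and 12.5% of all genes. For Hdac5 this order rested on a log2 difference of 0.00 between the controls, and it was lost when the libraries were scaled by their median ratio or by totals without the 100 most abundant genes, each of which left the other 4. The donors' sex, which the Y-linked genes place on the same side as the genotype, cannot be told apart from it in any of these values.

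The butyrate changes of WT and LNCKO macrophages share no library and can be set side by side. Hdac2 was the 1 member higher in both genotypes, with log2 changes of 0.07 and 0.02, where 18.7% of all genes were. No member was lower in both, where 37.4% of all genes were, and 9 of the 10 had opposite signs, where 43.9% of all genes did. Under median-ratio scaling Hdac1 was higher in both genotypes and 8 members had opposite signs, where 46.3% of all genes did. Most of these signs rest on changes within counting error: Hdac3 alone had intervals on opposite sides of 1 in the genotypes, where 13.6% of all genes did. The change in WT lay below that in LNCKO most for Hdac9, by a log2 difference of -0.62 with a counting SE of 0.082, and above it most for Hdac10, with 0.36 and a counting SE of 0.092. With 1 library per group these differences could not be tested.

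**Figure D4:**
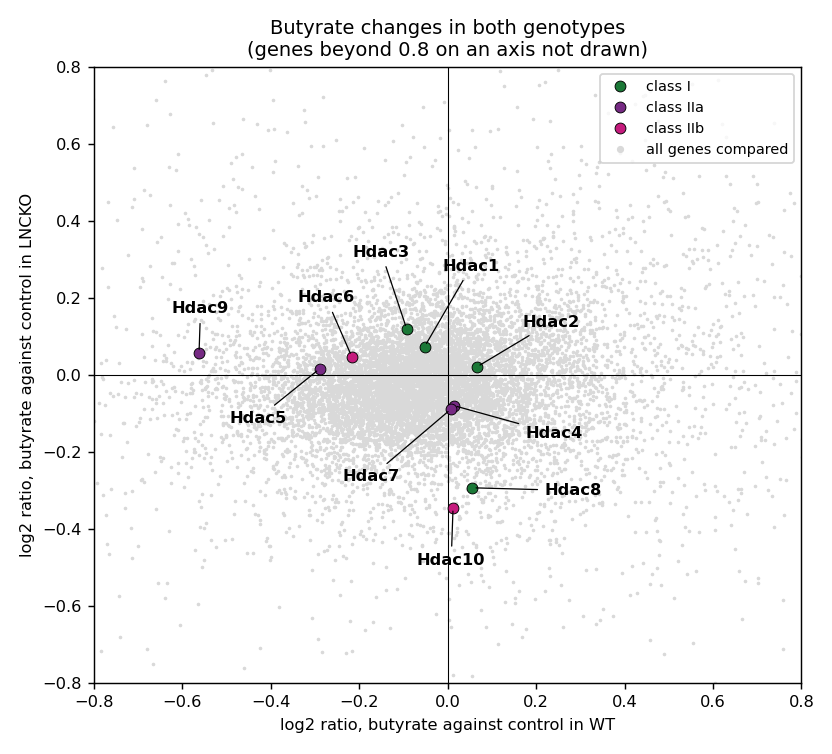
Log2 butyrate change in WT (x axis) against that in LNCKO (y axis) for the 10 genes, colored by class, over all genes compared in gray; 459 genes beyond 0.8 on an axis are not drawn. Hdac9, Hdac5 and Hdac6 lie along the WT axis, at -0.56, -0.29 and -0.22, and Hdac10 and Hdac8 along the LNCKO axis, at -0.34 and -0.29.

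Summed levels of some markers of other cell types had the library order of Hdac9. The 6 B cell markers reported (Cd79a, Cd79b, Ms4a1, Ebf1, Pax5 and Vpreb3) were all lower with butyrate in WT, with a median log2 change of -0.32, while 3 of 6 were higher in LNCKO, with a median of 0.00. Their summed level was 1205 fragments per 1000000 without and 995 with butyrate in WT cells, and 1232 and 1249 in LNCKO cells, which is the order of the libraries for Hdac9. Not each marker had this order. Vpreb3 had an FPKM of 5.31, 2.90, 5.24 and 4.88 in the same order of groups. Between the controls, 4 of the 6 were higher in LNCKO and 2 lower, and 2 had an interval above 1 (30.2% of all genes). Treated WT was the lowest library for 46.3% of all genes. The 5 mast cell and basophil markers summed to 53.7, 41.4, 86.4 and 88.7 in the same order of groups, also with treated WT lowest and both LNCKO libraries highest. Within that list, however, Cpa3 and Mcpt8 were lower with butyrate in WT, with log2 changes of -0.78 and -0.98, whereas Ms4a2 was higher, with 0.73, and Gata2 was at 0.07. The sum of the macrophage markers had the order opposite to that of Hdac9, with 15566, 20519, 13482 and 9746. Lyz2 alone gave 44.5% to 69.8% of it. Without Lyz2 the other 9 kept this order with smaller differences, at 5723, 6190, 5449 and 5405. With butyrate in WT 7 of the 10 were higher and 3 lower, where 60.8% of all genes were lower. The 3 were Cd14 at -0.56, Mrc1 at -0.12 and Csf1r at -0.00. The markers of neutrophils and their precursors summed to 7461, 9224, 6838 and 6403, with 6 of 9 higher with butyrate in WT and Ngp, Camp and Ltf lower, at -0.35, -0.45 and -0.19. The T and NK cell markers summed to 28.9, 33.4, 39.2 and 40.9 and the erythroid markers to 5.96, 6.88, 23.1 and 64.1. With butyrate in WT the T and NK cell markers were split. Nkg7, with the most fragments of them in WT, went from 699 to 1087, a log2 change of 0.57. Cd3d and Lck were at 0.33 and 0.04, and Cd8a, Cd3g and Cd3e were lower, at -0.31, -0.47 and -1.17. Cd8a and Cd3g had the library order of Hdac9 and the others did not. Cd3d, Cd3e and Cd3g had means below the minimum. In such bulk samples fewer cells of a type and less RNA per cell cannot be told apart, and the part of these cells in the Hdac9, Hdac5 and Hdac6 values was not tested.

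By their pattern over the 4 libraries, 3 genes lay nearest to Hdac9 among 7755 with a mean of at least 1000 fragments, as measured by the Euclidean distance of the centered log2 FPKM. They were Myo1e, a long-tailed myosin, with a distance of 0.067, Ccl3, a chemokine of activated macrophages, with 0.082, and Fcrla, an Fc receptor-like protein of B cells, with 0.088. Their log2 changes with butyrate in WT were -0.56, -0.48 and -0.69, and in LNCKO 0.14, 0.09 and 0.05. With only 4 libraries behind it, such a likeness is a description.

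The genes that act with the deacetylases were read from 12 lists with 79 genes, of which 75 were compared. They comprise other deacetylases (Hdac11 and the sirtuins), the corepressor complexes, the acetyltransferases, the BET proteins that read acetylated histones, and the MEF2 partners, kinases and Ywha and Sfn adaptors that regulate class IIa. With butyrate in WT, 1 of the 75 was at least 1.5-fold higher, Rcor2, and 1 at least 1.5-fold lower, Brms1, beside 3.34% and 2.93% of all genes. In LNCKO 1 was higher, again Brms1, and 0 were lower, beside 1.67% and 0.938% of all genes. The median log2 change over the 75 was -0.10 in WT and -0.04 in LNCKO, beside -0.06 and -0.02 over all genes. On the deposited values 60 of the 75 were lower in WT, where 60.8% of all genes were. Under median-ratio scaling the share of all genes was 50%, and the count of 60 is not to be set against it. That scaling also lowered the count of some lists, as from 8 to 5 of 11 NuRD genes. Other counts stayed, as at 6 of 7 kinase genes.

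The Sin3 list, whose complex carries HDAC1 and HDAC2, lay lowest among the complexes in WT. Each of its 11 genes lay below the control there, where 60.8% of all genes did, and 10 had an interval below 1 (43.9% of all genes). Their median log2 change was -0.30, beside -0.06 over all genes. In LNCKO 6 of 11 were lower, near the 57.9% of all genes, and the median was -0.00, beside -0.02 over all genes. Under median-ratio scaling 10 of 11 were lower in WT, with a median of -0.24, where 50% of all genes were. In LNCKO 2 of 11 were lower under it, with a median of 0.02, where 49.9% of all genes were. Sap30, the most abundant of them by exon level, had an FPKM of 15.2 without and 12.4 with butyrate in WT cells, and of 13.3 and 14.4 in LNCKO cells. Brms1, a Sin3 subunit known as a metastasis suppressor, had 1.97, 1.04, 1.29 and 2.03, so that untreated WT and treated LNCKO were high and the other libraries low. Its log2 change was -0.92 in WT (-1.08 to -0.77) and 0.66 in LNCKO (0.51 to 0.80).

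The other complexes stayed nearer to all genes. In WT, 0 of 11 NuRD genes were past 1.5-fold, with a median of -0.02, and Chd4, its remodeling ATPase, had a log2 change of -0.07. The medians were -0.04 for 5 CoREST genes, -0.08 for 5 NCoR/SMRT genes and -0.14 for 3 MiDAC genes. Rcor2, a CoREST subunit, had only 69 and 130 fragments in untreated and treated WT and 132 and 110 in untreated and treated LNCKO, and its log2 change in WT was 0.84 with a wide interval (0.41 to 1.29).

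**Figure D5:**
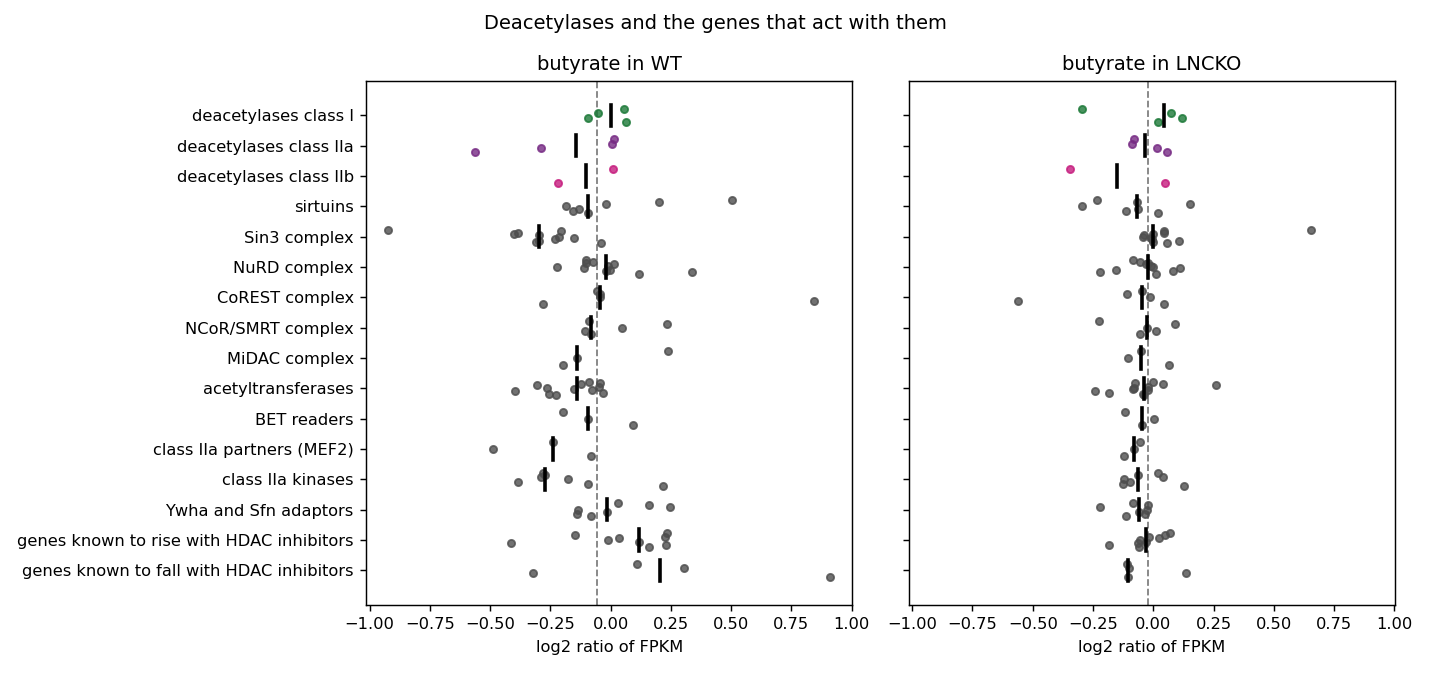
Log2 butyrate change of the deacetylases by class and of the genes that act with them, in WT (left) and LNCKO (right); points are genes, thick bars list medians, and the dashed line the median of all genes. In WT the Sin3 list has its median at -0.30 and Brms1 at -0.92, and in LNCKO the Sin3 median is -0.00.

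The enzymes that work against the deacetylases were measured in the same libraries. All 12 acetyltransferase genes, among them Ep300 and Crebbp, were lower with butyrate in WT, where 60.8% of all genes were. Their median log2 change was -0.14, beside -0.06 over all genes, and 0 were past 1.5-fold. Under median-ratio scaling, which brings the median of all genes to 0.00, 9 of 12 were lower, with a median of -0.08. As deposited, 10 of 12 were lower in LNCKO, where 57.9% of all genes were, with a median of -0.04, beside -0.02 over all genes. Under median-ratio scaling 7 of 12 were lower in LNCKO, where 49.9% of all genes were, with a median of -0.02. Kat6b, the least abundant of them, had an FPKM of 0.107 without and 0.0813 with butyrate in WT cells, and of 0.109 and 0.0920 in LNCKO cells, so that both treated libraries were low. Of the 3 BET genes, 2 were lower in WT, with a median of -0.09. The 7 sirtuin genes, NAD-dependent deacetylases that use no zinc in catalysis, had a median of -0.09 in WT and -0.07 in LNCKO, with 0 past 1.5-fold. Sirt7, a nuclear member and the most abundant of them by exon level, had an FPKM of 16.4 and 15.0 without and with butyrate in WT cells and of 16.3 and 15.6 in LNCKO cells.

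The regulators of class IIa did not move as 1 group in WT. The 3 MEF2 genes compared had medians of -0.24 in WT and -0.08 in LNCKO, and all 3 were lower in both genotypes, where 37.4% of all genes were. Mef2b, left out because its mean of 89.75 fragments was below the minimum, went the other way. Its log2 change was 0.87 in WT (0.40 to 1.35) and 0.75 in LNCKO (0.30 to 1.22). Mef2c, which pairs with class IIa enzymes in muscle and in B cells, had an FPKM of 0.976 without and 0.695 with butyrate in WT cells, and of 0.932 and 0.881 in LNCKO cells. Of the 7 kinase genes compared, 6 were lower in WT, where 60.8% of all genes were. Their median was -0.27, beside -0.06 over all genes. Camk4 and Prkd1 were left out because their means of 23.75 and 6.75 fragments were below the minimum. With butyrate in WT Camk4 was at -0.74 (-1.70 to 0.19) and Prkd1 at 1.12 (-0.24 to 2.65). In LNCKO Camk4 was at -1.30 (-2.23 to -0.42) and Prkd1 went from 4 to 0 fragments. Sik1, which phosphorylates class IIa enzymes and so sends them to the cytoplasm, was the most abundant kinase gene by exon level. It was higher, by 0.22 in WT (0.15 to 0.28) and 0.13 in LNCKO (0.07 to 0.18). The Ywha and Sfn adaptors, which keep phosphorylated class IIa enzymes in the cytoplasm, had a median of -0.01 in WT, with 3 of 7 higher. In LNCKO their median was -0.06, with 0 of 7 higher, where 57.9% of all genes were lower and the median of all genes was -0.02. Sfn differed between the genotypes without butyrate, with an FPKM of 4.10 in WT and 6.33 in LNCKO cells.

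Genes widely known to respond to deacetylase inhibitors were read as a check on the treatment. Of 11 genes known to go up, 9 were compared. With butyrate in WT 6 were higher and 3 lower, where 60.8% of all genes were lower. In WT 0 were past 1.5-fold, beside 3.34% of all genes on the higher side and 2.93% on the lower. In LNCKO 3 were higher and 6 lower, where 57.9% of all genes were lower. The medians were 0.12 in WT and -0.03 in LNCKO, beside -0.06 and -0.02 over all genes. Tubb3, left out because its mean of 36 fragments was below the minimum, was lower in both genotypes. Its log2 change was -0.44 in WT (-1.16 to 0.28) and -1.51 in LNCKO (-2.30 to -0.76). H1f0, the linker histone H1.0, had an FPKM of 50.2 without and 59.0 with butyrate in WT cells, and of 52.5 and 55.0 in LNCKO cells. Cdkn1a, the cell cycle inhibitor p21, had 19.6, 14.7, 22.7 and 21.7, so that it was lowest in treated WT. H1f0 and Cdkn1a were singled out after their values were seen. Among the 4 genes known to go down, Myc had an FPKM of 8.28 without and 15.6 with butyrate in WT cells, and of 11.2 and 10.4 in LNCKO cells, and its log2 change in WT was 0.91 (0.84 to 0.98). In this list of genes known to go down, 3 of 4 were higher in WT, each with an interval above 1 (23.4% of all genes). In LNCKO 1 of 4 was higher. The list as a whole had a median of 0.21 in WT and -0.10 in LNCKO.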

How the data were processed

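RNA of macrophages grown from bone marrow was sequenced by the authors as paired-end reads, with 1 library in each of 4 groups. The authors deposited FPKM values. The submitters' processing notes name STAR 2.5.0c, Picard 1.126, bedtools 2.17.0 and HTSeq 0.6.0 among the tools and GRCm38 as the build, and the annotation and strand setting are not given in the sources used here. Titles gave the groups, and library names tied the columns to them. The names of the LNCKO libraries do not hold the genotype, so that it rests on the labels alone.

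For each library, the total was searched that turned most FPKM values into whole fragments on the gene spans of GENCODE M21 (tolerance 0.02). Changes are log2 ratios of FPKM without a pseudocount. Intervals of ratios are exact 95% Clopper-Pearson intervals of the fragments of both libraries. Fragments without molecular identifiers are not independent molecules, so the intervals cover counting error only. A gene at 0 in 1 library was set to 3 fragments. Genes were compared if they had whole fragments and a mean of at least 100. Genes past 1.5-fold were counted, and no p-value was computed, since each group had 1 library. Because the span includes introns, the deposited values understate genes with long introns if the counted fragments are exonic, which the values do not show. Levels of different genes were compared on merged exons only, and they would be too high for such genes if intron fragments were counted.

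The rule for named genes allowed the 10 members and, from each list, the most and least abundant genes and those past 1.5-fold with an interval that leaves out 1, plus markers and others marked as chosen later. A B cell marker of the planned list is not reported here, for a reason unrelated to its values, and was left out of that list's values. The members and lists were chosen with earlier results of these data known. Alternatives were pseudocounts of 0.1 and 1, scaling by the median ratio, totals without the 100 most abundant genes, no filter and a minimum of 1000 fragments. List counts under other scalings and the sum without Lyz2 were added after seeing the data. The steps were tested on simulated data. Tables and intervals were made in Python 3.11.15 with pandas 2.3.3, scipy 1.17.1 and numpy 2.4.6, and plots with matplotlib 3.10.9.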

Additional observations from a re-analysis of the deposited data

Results flagged for a closer look

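For 9 of the 10 genes the butyrate changes of the single WT pair and the single LNCKO pair had opposite signs, and these differences were not tested. Hdac3 alone had both counting intervals off 1, and under median-ratio scaling 8 genes had opposite signs, where 46.3% of all genes did. As WT minus LNCKO log2 change, they were -0.62 for Hdac9, -0.31 for Hdac5, -0.26 for Hdac6, -0.21 for Hdac3 and -0.13 for Hdac1 on the lower side, and 0.36 for Hdac10, 0.35 for Hdac8, 0.097 for Hdac7 and 0.093 for Hdac4 on the higher side. On the deposited values opposite signs were seen in 43.9% of all genes. For Hdac4 and Hdac7 the counting interval of the difference included 0.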

How the results depend on the processing

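No paired analysis was possible because each group had 1 library, and for the same reason no library could be left out. Of 90 values of the counts and medians under the alternatives, 3 moved, where a count moved if it differed by over 1.5 times and a median if it differed by more than the median half-width of the members' counting intervals (0.089 to 0.094, and 0.129 for WT minus LNCKO). Within that tolerance the members' median change in WT turned from -0.02 to 0.03 with median-ratio scaling and to 0.01 without the 100 most abundant genes, and their median WT minus LNCKO difference went from -0.04 to -0.13 with a minimum of 1000 fragments, which left 7 members. The count of members at least 1.5-fold higher in LNCKO with butyrate was 1 (Hdac9) and became 0 with a pseudocount of 0.1 and 0 with a pseudocount of 1, since the FPKM of Hdac9 on its long span is far below both: its log2 difference went from 0.84 to 0.16 and 0.02, and its butyrate change in WT from -0.56 to -0.10 and -0.01. The count of members higher with butyrate in both genotypes was 1 and became 2 with median-ratio scaling. Of 160 values of single members, 145 stayed within their counting interval and 15 moved; 5 changed sign, each in a scaling alternative. Under median-ratio scaling the Hdac5 change in WT was -0.23. Members with few fragments, such as Hdac8, have the widest intervals.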
